A study of Mus musculus with 3 samples.

Results

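CC chemokines are small secreted proteins with adjacent cysteines near their start, and they draw leukocytes along a gradient by binding G protein-coupled CC receptors on those cells. Epithelial tumor cells, fibroblasts and macrophages can all release them, and in mammary tumors Ccl2 and Ccl5 are best known for bringing in monocytes and T cells. RANK ligand (RL) activates NF-κB in RANK-expressing mammary cells, and several CC chemokine genes are NF-κB targets in other cells. The genes described here are 10 CC chemokines given by name, Ccl2, Ccl3, Ccl4, Ccl5, Ccl7, Ccl11, Ccl17, Ccl20, Ccl25 and Ccl28, among 36799 genes and transcripts on the array. All 10 had a probe whose accession maps to the symbol, and together they had 11 probes, because Ccl25 had a second probe for a noncoding transcript.

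Cells of tumors from 3 MMTV-PyMT mice, called tumors 1, 2 and 3, were cultured as 1 untreated and 1 RL-treated culture per tumor, and RNA was taken 24 h after RL. In this model the MMTV promoter drives the polyoma middle T oncogene in mammary epithelium. Per the methods, cultures of this kind were seeded on growth factor-reduced Matrigel in medium with serum, EGF, cholera toxin and insulin, from transplanted tumors on a C57BL/6 background; the labels speak of primary tumor cultures and state neither the RANK genotype nor the age of the mice. These arrays were matched to the methods by their labels alone, because the data availability statement names another GEO series, and the methods give dye swaps for each sample, which the labels do not show. The RL dose is 1000 µg/ml in the labels and 1 µg/mL in the methods. Both cultures of a tumor were hybridized to the same array in different dyes, with RL in Cy3 for tumors 1 and 3 and in Cy5 for tumor 2, so a dye effect and an RL effect are balanced in no single tumor. Over 21721 genes, Pearson's r of these ratios was 0.453 for the arrays of tumors 1 and 3, and −0.112 and −0.109 for tumor 2 against tumor 1 and tumor 3. The comparison asks whether RL changed chemokine transcripts in the tumor cultures.

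The label of the cultures held against cell type markers. All 10 of 10 epithelial markers were well above background in all 6 channels, a call the scanner software makes for each spot and dye. The same held for 56.8% of all genes and transcripts. Of the fibroblast markers, 8 of 8 were above background in every channel, and of the myeloid markers 10 of 11 had a probe and 9 were above background in every channel. The pan-leukocyte gene Ptprc was above background in 5 of the 6 channels. It was dim, with mean log2 levels of 6.26, 6.20 and 6.50 in tumors 1, 2 and 3. Lymphoid and dendritic markers were mostly at background: none of the 4 B cell genes passed in any channel, 4 of 6 T cell genes (Cd3d, Cd3g, Cd8a and Cd2) and 3 of 5 dendritic genes did not either, and Cd3e, Cd4 and Zbtb46 were the members of those lists above background in all 6. Of 5 endothelial genes, Kdr and Pecam1 were above background in every channel. Transcripts of epithelial, fibroblast and myeloid markers were thus present in every culture, and in such bulk RNA fewer cells of a type and less RNA per cell cannot be told apart.

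Of the 10 chemokines, 7 were well above background in all 6 channels, as were 56.8% of all genes and transcripts: Ccl2, Ccl3, Ccl5, Ccl7, Ccl11, Ccl17 and Ccl25. These 7 passed the filter on dim probes and were tested. Ccl4, which lies next to Ccl3 in the mouse genome, was above background in both cultures of tumors 1 and 3 and in neither of tumor 2. In tumor 2 its median spot signal was 80 over a local background of 71 with RL and 33 over 34 in the control. Ccl28, a mucosal chemokine that the lactating mammary gland uses to recruit IgA-secreting plasma cells, was above background in tumor 2 alone, where its signal was 83 over 71.5 with RL and 39 over 38 in the control. That call is weak: no channel of Ccl28 passed a call by 2.6 background SDs, and the control of tumor 3, at 83 over 74, was not called. Ccl20, the ligand of Ccr6, was above background in no channel. Its signals lay below the local background in every channel, with 28 over 34 for RL and 64 over 72 for control in tumor 1, so these arrays give no level for it in either condition. No chemokine was above background in all cultures of one condition and in none of the other, so no bound on a fold change applies.

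**Figure D1:**
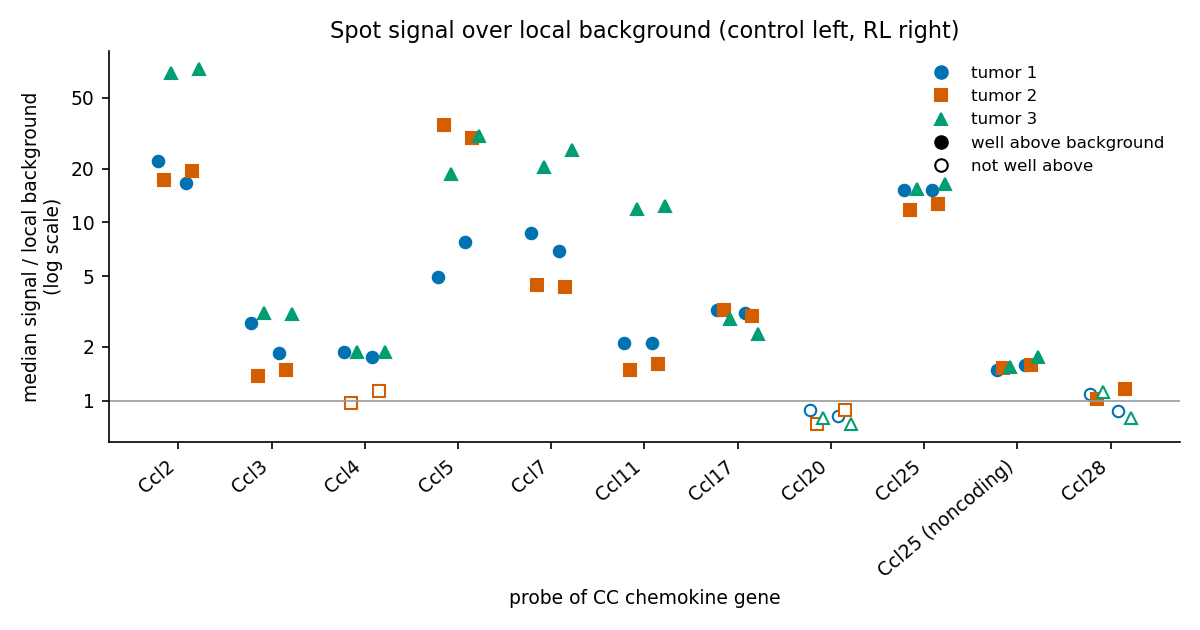
Median spot signal divided by local background (log axis) for the 11 chemokine probes, with control cultures on the left and RL cultures on the right of each probe; filled symbols are channels called well above background. Ccl20 lies under 1 in all 6 channels, and Ccl4 is open in tumor 2 only.

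No chemokine passed the limma test for RL over control: of 7 tested, 0 had an adjusted p under 0.05, where 0.0276% of all 21743 genes and transcripts tested (6 of them) did. At an unadjusted p under 0.05, 1 of the 7 passed, against 7.07% of all genes tested. The rank product and the dye-term fit called 0 of the 7 as well, with 0.401% and 1.31% of all genes called. Only 1 chemokine was higher with RL on all 3 arrays (Ccl5), where 14.1% of all genes were, and 2 were lower on all 3 (Ccl11 and Ccl17), where 13.6% were; with 7 genes, shares of this size are no result about chemokines. The median log2 change of the 7 was −0.12, and that of all genes tested was 0. With 3 pairs, an exact sign-flip permutation test of a single gene cannot give a two-sided p below 0.25.

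**Figure D2:**
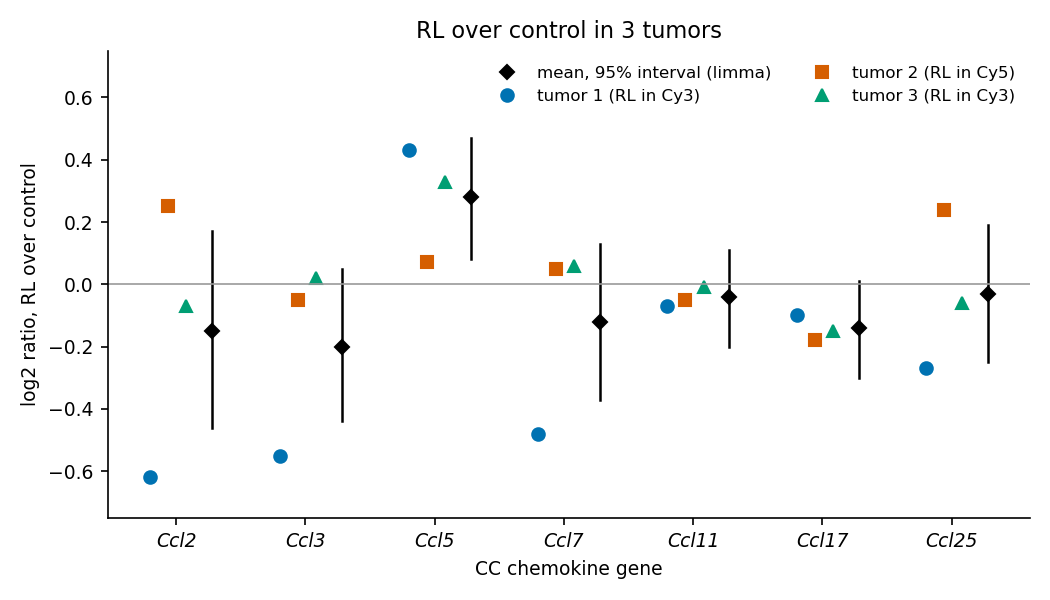
Log2 ratio of RL over control for the 7 chemokines tested, in each tumor (symbols, with the dye of the RL sample) and as the limma mean with its 95% interval (black). Ccl5 has its 3 values above 0 and an interval from 0.08 to 0.47, and tumor 1 has the lowest value for Ccl2, Ccl3, Ccl7 and Ccl25.

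Ccl5, also called RANTES, attracts T cells, monocytes and dendritic cells. Its log2 ratios of RL over control were 0.43, 0.07 and 0.33 in tumors 1, 2 and 3. The mean was 0.28 (SE 0.09, 95% interval 0.08 to 0.47, adjusted p = 0.513 from limma, unadjusted p = 0.0105). All 3 tumors were thus on the same side of 0, but the tumor with RL in Cy5 was close to it, and without background correction or with median centring Ccl5 was not higher on all 3 arrays. When that tumor was left out, the log2 change was 0.38 and the adjusted p from limma 0.00353, while 6.82% of all genes were then called; the arrays that remain have the same dye order, so RL and dye cannot be told apart in them. Fitted to all 3 arrays with the dyes in the limma model, Ccl5 was not called.

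Ccl2 and Ccl7 are monocyte chemoattractants that bind Ccr2, and Ccl11 (eotaxin) attracts eosinophils through Ccr3. Their genes follow one another in the RefSeq order of the mouse genome, Ccl2 before Ccl7 before Ccl11. Ccl2 had log2 ratios of −0.62, 0.25 and −0.07 in tumors 1, 2 and 3, with a mean of −0.15 (SE 0.14, adjusted p = 0.889 from limma). The array holds the Ccl2 probe on 10 spots, whose spread is that of spots within 1 hybridization. Over the 10 spots the SD of the ratio was 0.09, 0.07 and 0.04 in tumors 1, 2 and 3. In tumor 1 all 10 spots lay between −0.75 and −0.46, and in tumor 2 all 10 lay between 0.15 and 0.35. The spread of spots leaves out variation between cultures, labelings and dyes, and each tumor had 1 pair of cultures, so it does not tell whether the tumors differ. Without tumor 2, Ccl2 had a log2 change of −0.34 (adjusted p = 0.0285 from limma), where 6.82% of all genes were called and RL and dye cannot be told apart, as for Ccl5, and without tumor 1 it was 0.09.

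Ccl7 had log2 ratios of −0.48, 0.05 and 0.06 in tumors 1, 2 and 3 and a mean of −0.12 (SE 0.11). Tumor 1 alone set that direction, since the mean without it was 0.06. Ccl11 had log2 ratios of −0.07, −0.05 and −0.01 in tumors 1, 2 and 3 and a 95% interval from −0.20 to 0.11, which leaves room for changes in either direction. Median centring gave −0.21 for Ccl11, outside that interval, but it also moved the median of all genes to −0.11.

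Ccl3, or macrophage inflammatory protein 1 alpha, attracts monocytes and was dim. Its median signals were 61 with RL and 197 in the control of tumor 1, over local backgrounds of 33 and 72. The mean log2 change was −0.20 (95% interval −0.44 to 0.05), to which tumor 1 alone gave its size, since the mean without that tumor was −0.02. Ccl4 had log2 ratios of −0.22 in tumor 1 and −0.04 in tumor 3, the tumors in which it was above background. Both genes thus had their lowest ratio in tumor 1, as Ccl2 and Ccl7 did. In that tumor 6 of the 7 chemokines tested were below 0, with a median of −0.27, against 3 in tumor 2 and 4 in tumor 3, while the median of all genes was within 0.01 of 0 on every array.

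Ccl17 recruits Ccr4-bearing T cells, and Ccl25 guides Ccr9-bearing cells to the thymus and small intestine. Ccl17 had log2 ratios of −0.10, −0.18 and −0.15 in tumors 1, 2 and 3 and a mean of −0.14 (SE 0.07, 95% interval −0.30 to 0.01, adjusted p = 0.734 from limma). Ccl25 had −0.27, 0.24 and −0.06 and a mean of −0.03 (SE 0.10). Its dimmer probe, for the noncoding transcript, was also above background in all 6 channels and gave 0.07, 0.02 and 0.12. The 2 Ccl25 probes thus differed in sign in tumors 1 and 3, and neither mean was called.

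The level of several chemokines differed more between the arrays of the 3 tumors than between the cultures on an array. Averaged over both cultures of a tumor, which balances the dyes, and on 1 array per tumor, so that tumor and array cannot be told apart, the normalized level of Ccl11 was 6.92, 6.59 and 9.30 in tumors 1, 2 and 3 on the log2 scale, a range of 2.71 or 6.55-fold. That fold is compressed by the offset of 50, as Ccl11 was dim in tumor 2, at 52 over 35 in the control and 114 over 71 with RL. Its 2 cultures of tumor 3 were at 9.29 with RL and 9.30 without, above all 4 cultures of the other tumors, which lay between 6.56 and 6.95. Ccl7 had a range of 2.19, with 8.68, 7.91 and 10.09, and Ccl2 a range of 1.87, with 9.92, 9.90 and 11.77. These 3 neighboring genes were all highest in tumor 3, and both cultures of that tumor exceeded every other culture.

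Ccl5 had another order. Its mean levels were 8.30, 10.59 and 10.07 in tumors 1, 2 and 3, a range of 2.29 or 4.89-fold, and both cultures of tumor 1 (8.52 with RL and 8.09 without) lay below all others. Ccl3 was at 7.07, 6.51 and 7.48, and its RL culture of tumor 1 (6.80) fell between the cultures of tumor 2 and its own control (7.35). Ccl17 and Ccl25 were nearly level, with ranges of 0.23 and 0.31. For Ccl17 and Ccl25 these ranges were only slightly wider than the largest difference between the cultures of a tumor, which was 0.18 for Ccl17 and 0.27 for Ccl25.

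**Figure D3:**
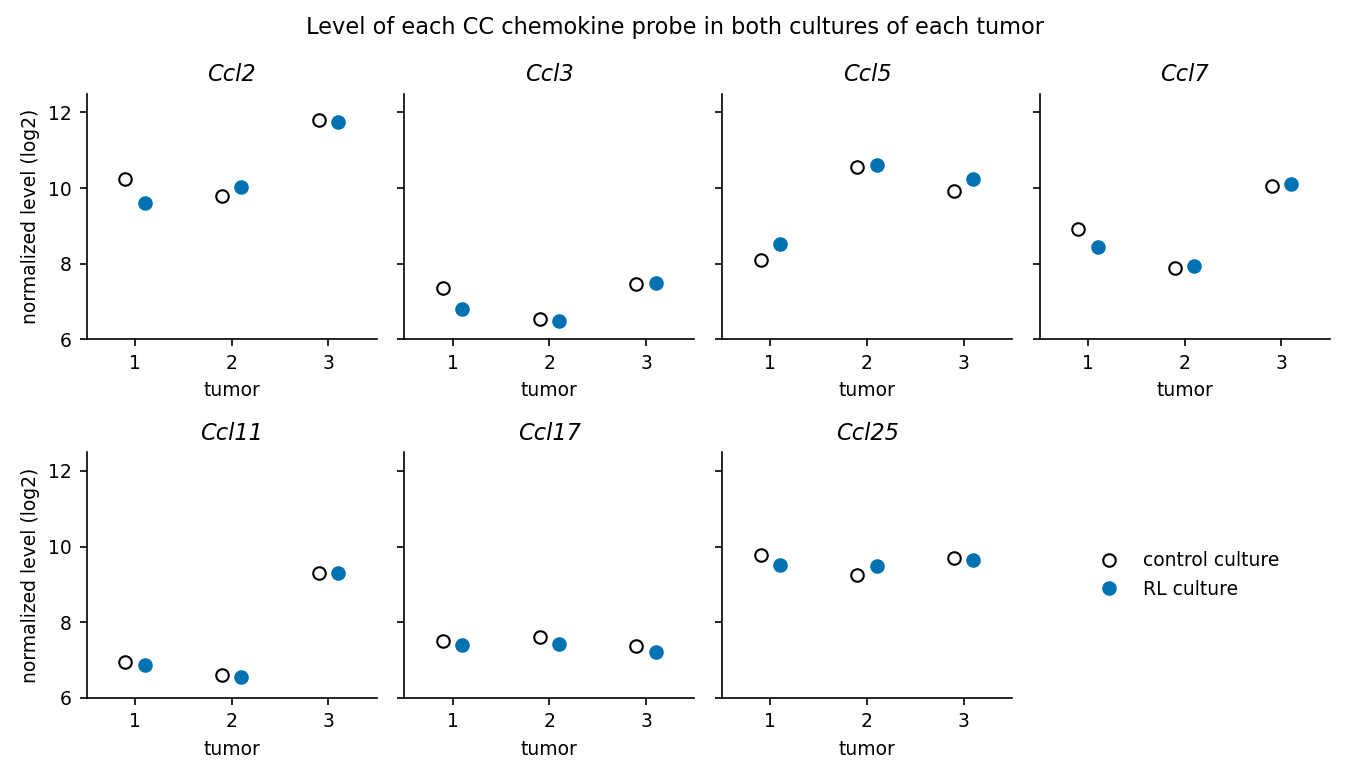
Normalized level (log2) of the probe of each chemokine tested in the control (open) and RL (filled) culture of tumors 1, 2 and 3; levels may be compared within a panel and not between panels. Ccl2, Ccl7 and Ccl11 are highest in both cultures of tumor 3, and Ccl5 is lowest in both cultures of tumor 1.

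For all 7 chemokines tested, the range of the mean level over tumors was wider than the largest difference between RL and control in any tumor, as it was for 69.8% of all genes with 3 values. With median centring in place of loess, this held for 5 of the 7 chemokines and 29.2% of all genes. The median range was 1.87 for the 7 chemokines and 0.27 for all genes. The median of the largest difference between cultures was 0.43 for the chemokines and 0.18 for all genes. Of all genes, 0.737% had a wider range than Ccl11, 1.17% than Ccl5, 1.36% than Ccl7, 2.04% than Ccl2 and 7.71% than Ccl3, while 44.5% had a wider range than Ccl25 and 58.4% than Ccl17. A range over tumors compares arrays, while a difference between cultures is taken on the same spots, so the ranges describe 3 tumors on 3 arrays and carry no test.

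**Figure D4:**
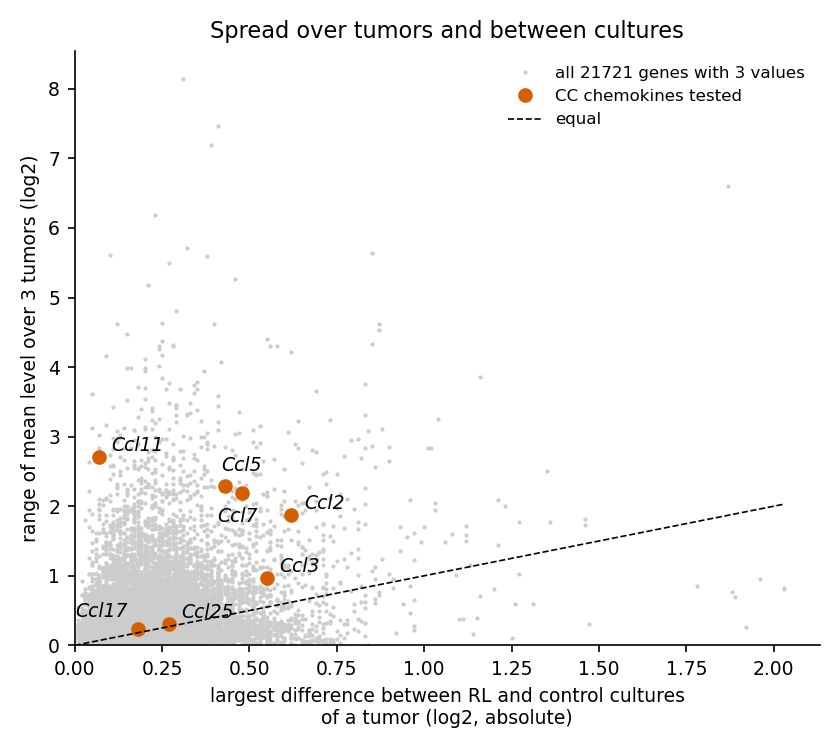
Range of the mean level over the 3 tumors (vertical, log2) against the largest absolute difference between RL and control cultures of a tumor (horizontal, log2), for 21721 genes (gray) and the 7 chemokines (orange); on the dashed line both are equal. Ccl11, Ccl5, Ccl7 and Ccl2 stand far above the line, with ranges of 1.87 to 2.71, and Ccl17 and Ccl25 close to it.

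Of the 6 marker lists with genes tested, the summed levels of 2, fibroblast and epithelial, were highest in tumor 3 in both cultures, as Ccl2, Ccl7 and Ccl11 were. Zbtb46, the 1 dendritic gene tested, was highest in tumor 1 in both cultures. The 2 T cell genes tested summed highest there too, although Cd3e had its highest mean level in tumor 2. The 2 endothelial genes tested, Kdr and Pecam1, summed highest in tumor 1 with RL and in tumor 2 without. Cdh5 and Emcn, endothelial genes above background in 2 channels each and not tested, had their highest mean levels in tumor 3, at 6.83 and 6.58. Of the 8 fibroblast genes, 6 were highest in tumor 3 and 2, Pdgfra and Fap, in tumor 2, where 24.9% and 38.9% of all genes were highest, and 5 of the 7 chemokines were highest in tumor 3. The summed level of the fibroblast list was 13.20, 12.17 and 14.16 in the control cultures of tumors 1, 2 and 3 and 12.92, 12.27 and 14.11 in the RL cultures, on the log2 scale. The epithelial list had 18.95 in the control and 18.56 with RL in tumor 3, against 18.48 and 18.25 in tumor 1 and 18.14 and 18.24 in tumor 2. Of the 10 epithelial genes, 4, 2 and 4 were highest in tumors 1, 2 and 3. The summed level of the myeloid list was highest in tumor 1, at 14.67 in the control and 15.05 with RL, against 13.89 and 13.86 in tumor 2 and 14.06 and 14.03 in tumor 3. Cd14, which makes up a large part of the myeloid sum, was at 14.41, 12.82 and 13.01 in tumors 1, 2 and 3, while 5 of the 10 myeloid genes were highest in tumor 3 and 4 in tumor 1. The part of any cell type in the chemokine levels was not tested.

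**Figure D5:**
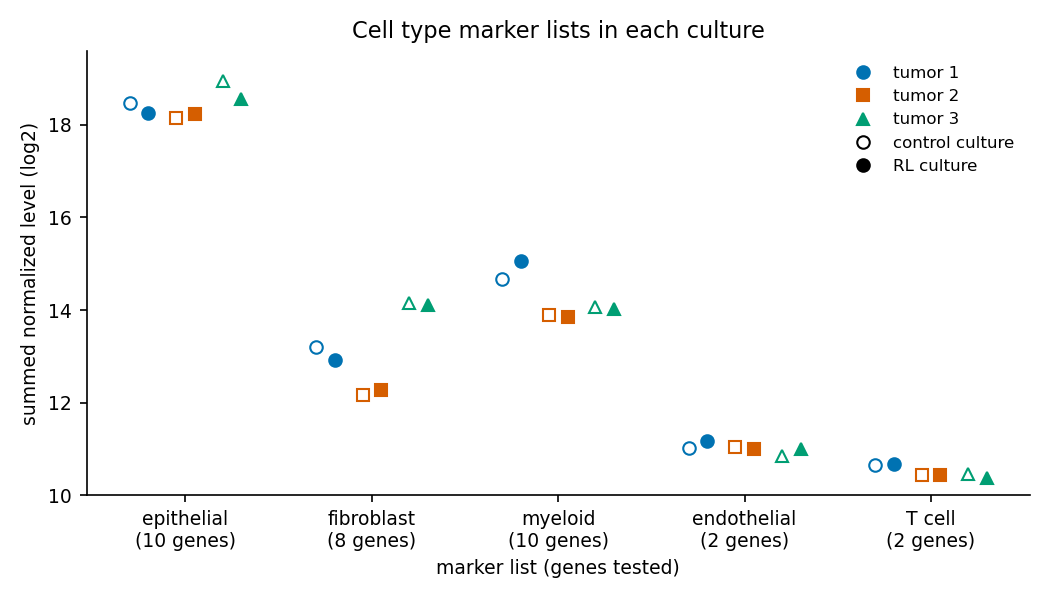
Summed normalized level (log2) of each cell type marker list over its genes tested, in control (open) and RL (filled) cultures of the 3 tumors. The fibroblast list is highest in both cultures of tumor 3, at 14.16 and 14.11, as is the epithelial list, and the myeloid list is highest in both cultures of tumor 1.

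Between RL and control, the marker lists had no shared direction in tumor 1, where Ccl2 and Ccl7 were lower. The median log2 ratios of the fibroblast genes were −0.30, 0.10 and −0.05 in tumors 1, 2 and 3, and those of the myeloid genes −0.17, −0.06 and −0.02, although Cd14 was 0.56 in tumor 1 and the summed myeloid level higher with RL there. The epithelial list had medians of 0.16, −0.16 and −0.10, although Krt18 had −0.73, 0.43 and −0.70, and in tumors 1 and 2 the summed level differed in the other direction than the median. The endothelial list had −0.01, 0.04 and −0.05, and the T cell list 0.02, 0.00 and −0.07 with 2 genes tested. Zbtb46, the 1 dendritic gene tested, had 0.00, 0.09 and 0.07. No marker of any list passed the adjusted p of limma. Whether a different share of stromal cells in the treated culture of tumor 1 has a part in the chemokine ratios there was not tested.

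Values of known NF-κB targets stand beside those of the chemokines. All 8 of 8 NF-κB feedback genes (Nfkbia, Nfkbie, Nfkb2, Relb, Birc3, Traf1, Icam1 and Tnfaip3), which NF-κB induces and several of which restrain it, were higher with RL in all 3 tumors, with median log2 ratios of 1.15, 0.45 and 0.25 in tumors 1, 2 and 3, where 14.1% of all genes were higher on all 3 arrays, and 0 of the 8 passed the adjusted p of limma. Over the same arrays the 7 chemokines had medians of −0.27, 0.05 and −0.01. These NF-κB genes were listed with earlier results of the same data known, so their direction restates that choice and is no independent check of the treatment.

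Among the other CC ligands on a list of 14, 10 had a probe, 5 were tested and 5 were above background in no channel. Ccl6, a chemokine of myeloid cells that binds Ccr1, was the 1 ligand with the same sign in all tumors and a mean of at least 0.2 in size. It had log2 ratios of −0.56, −0.60 and −0.10 in tumors 1, 2 and 3 and a mean of −0.42 (SE 0.10, 95% interval −0.65 to −0.19, adjusted p = 0.382 from limma). It was therefore lower in all 3 tumors but not called, and rank product did not call it either (pfp 0.0693). Limma with the dyes in the model gave Ccl6 an adjusted p of 0.000776. That fit called 1.31% of all genes and made more false calls on simulated data than its threshold allows. Of the 10 myeloid genes tested, 3 (Cd68, Fcgr3 and Tyrobp) were lower on all 3 arrays, where 13.6% of all genes were. Each of the other myeloid genes tested was higher with RL in some tumor and lower in another. The median log2 change of the myeloid list was −0.06. The other ligands tested, Ccl8, Ccl9, Ccl19 and Ccl27a, had mean log2 changes from −0.08 to 0.03.

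Receptors were scarce. Of 15 CC and atypical chemokine receptors, 8 were above background in no channel: Ccr1, Ccr2, Ccr4, Ccr6, Ccr9, Ccr10, Ccr1l1 and Ackr1. These include the receptors of Ccl2 and Ccl7 (Ccr2), Ccl17 (Ccr4), Ccl20 (Ccr6), Ccl25 (Ccr9) and Ccl28 (Ccr10). Ccr3, the eotaxin receptor, was above background in 1 of 6 channels. The receptors tested were Ccr7, Ccr8 and Ccrl2, of which Ccr7 and Ccr8 had mean log2 changes of 0.01 and 0.02.

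Ccrl2, an atypical receptor that binds chemerin without signaling through G proteins, was higher with RL in all 3 tumors. Its log2 ratios were 0.22, 0.47 and 0.09 in tumors 1, 2 and 3, with a mean of 0.26 (SE 0.09, 95% interval 0.07 to 0.45, adjusted p = 0.562 from limma). When limma also fitted the dyes, Ccrl2 had 0.31 (adjusted p = 0.0210), in the fit that made more false calls on simulated data than its threshold allows. Rank product did not call Ccrl2 (pfp 0.613). Its log2 change was 0.16 without tumor 2 (adjusted p = 0.319 from limma) and 0.15 with median centring. Like Ccl5 it was on the same side of 0 on every array without being called, and unlike Ccl5 it had its highest ratio in the tumor with exchanged dyes.

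As RL activates NF-κB, promoters were searched for the κB consensus, the motif that NF-κB dimers bind. The promoter table used, taken from RefSeq of GRCm38.p6 and not complete, held 6 promoters of 5 of the chemokines (Ccl3, Ccl17, Ccl20, Ccl25 with 2 starts, and Ccl28) and none for Ccl2, Ccl4, Ccl5, Ccl7 and Ccl11. Each runs from 250 bases before to 50 bases after a start. On either strand, 1 of the 6 had a match, that of Ccl20, and 8.46% of all 32851 promoters did. Besides the chemokines, Ccrl2 was the 1 gene searched. It was picked because it was higher on every array, so its match carries no test. Of its 3 promoters, 1 had a match, which reads as the consensus on both strands. The promoters of Ccl20 and Ccrl2 with a match are shown 5′ to 3′ on the strand of the gene, with the match in capitals. The Ccl20 match reads as the consensus only on the strand opposite to the one shown. They are shown because Ccl20 was at background in every channel and Ccrl2 was higher on every array. Ccl20 lies on the plus strand at chr1:83116516-83116815, and Ccrl2 on the minus strand at chr9:111057469-111057768.
Ccl20: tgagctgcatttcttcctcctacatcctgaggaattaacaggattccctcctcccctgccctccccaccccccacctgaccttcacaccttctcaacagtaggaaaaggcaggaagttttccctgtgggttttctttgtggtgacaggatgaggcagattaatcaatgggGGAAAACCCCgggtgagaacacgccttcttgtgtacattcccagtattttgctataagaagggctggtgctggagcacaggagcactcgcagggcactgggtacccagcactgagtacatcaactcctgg
Ccrl2: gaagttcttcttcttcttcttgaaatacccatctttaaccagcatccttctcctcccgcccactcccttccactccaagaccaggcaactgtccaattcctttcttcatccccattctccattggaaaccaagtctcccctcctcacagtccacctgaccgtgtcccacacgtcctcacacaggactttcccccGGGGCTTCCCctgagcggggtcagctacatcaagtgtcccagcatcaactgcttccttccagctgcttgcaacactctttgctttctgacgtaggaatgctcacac
The match begins 80 bases before the start of Ccl20 and 56 bases before that of Ccrl2. A match is a run of letters and does not show that NF-κB binds there, and a promoter without one may hold other κB-like letters.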

How the data were processed

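RNA of 3 pairs of tumor cultures was measured on 3 two-color Agilent arrays, which lay on 1 slide. The authors deposited median spot and local background intensities from Agilent Feature Extraction 10.7.3.1, uncorrected, and the software's processed intensities. The authors also deposited normalized log2 ratios, which the methods describe as condition over control and whose sample titles put control first for tumors 1 and 3. Set against the scanner values, their sign followed the titles and the dyes (r of −0.885, 0.874 and −0.880 across spots, medians 0.00244, −0.00110 and 0.00069), so they were turned to RL over control; their centring is near 0 and why their slopes against the values here differ from 1 is unknown. Accessions were matched to RefSeq symbols of GRCm38.p6, which named 28026 of 55681 probes; the array was designed on another build.

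In R 4.3.3 with limma 3.58.1, intensities were corrected with normexp (offset 50), normalized by intensity and spatial loess (span 0.1) and by Aquantile, and outlier spots were dropped. The offset compresses ratios of dim probes. Spots of a probe were averaged, and probes well above background in all 3 cultures of a condition were kept. The brightest probe stood for a gene; other probes come from the same fit over all 55681 probes. Ratios were fitted with lmFit and moderated with eBayes, with 2 residual degrees of freedom and 6.65 of the prior, and p was adjusted by Benjamini-Hochberg at 0.05. Summed levels are log2 of the sum of unlogged levels. The number of arrays limits the precision.

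The chemokines and all lists were chosen with earlier results of these data known. Named besides the 10 chemokines were other CC ligands and receptors past an adjusted p of 0.05, or of the same sign on all 3 arrays with a mean of at least 0.2 in size; further names were chosen after their values were seen, as was the comparison of levels over tumors. The programs were tested on simulated data, where limma with a dye term (1 residual degree of freedom) made more false calls than its threshold allows.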

Additional observations from a re-analysis of the deposited data

How the results depend on the processing

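Of 144 log2 changes of 9 genes (the 7 chemokines tested, Ccl6 and Ccrl2) over 16 alternatives, 5 turned and 5 passed the threshold. Leaving out Aquantile and using rank product cannot move a log2 change. Dropping the filter on dim probes or requiring all 6 channels cannot move these log2 changes either, because each gene keeps the same probe. Ccl3, Ccl5, Ccl11, Ccl17, Ccl6 and Ccrl2 kept their sign throughout, with Ccl5 between 0.17 and 0.38 (adjusted p or pfp 0.00353 to 1) and Ccl3 between −0.42 (processed signals) and −0.02 (without tumor 1), Ccl11 between −0.21 (median centring) and −0.03, and Ccrl2 between 0.15 and 0.34. Ccl25 turned to 0.04 with the dye term, 0.02 as the mean over its probes and 0.09 without tumor 1, and without tumor 1 Ccl2 turned to 0.09 and Ccl7 to 0.06. With a tumor left out, Ccl2 ran from −0.34 to 0.09, Ccl7 from −0.21 to 0.06 and Ccl25 from −0.17 to 0.09, and median centring gave them −0.31, −0.30 and −0.18. With the dyes fitted in limma, Ccl6 was called at −0.47 (adjusted p = 0.000776) and Ccrl2 at 0.31 (adjusted p = 0.0210). Leaving out tumor 2, limma called Ccl6 at −0.33 (adjusted p = 0.0267). The alternatives on levels over tumors were chosen after seeing the data and gave 5 to 7 of 7 chemokines (8 of 10 without the filter) with a wider range over tumors, where the share of all genes was 29.2% with median centring and 50.7%, 53.0% and 59.4% without tumors 1, 2 and 3.

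Genes called over all, 6 as reported, were 284 with the dye term, 87 by rank product (1000 permutations, pfp under 0.05), 18 without background correction, 14 with an offset of 10, 0 with the scanner's processed signals, 0 with median centring, 3 without the filter, 3 with all 6 channels required, and 1 to 1482 with a tumor left out. The chemokines called were 0 under every alternative except without tumor 2 (range 0 to 2), which called Ccl2 and Ccl5 where 6.82% of all genes were called on arrays of 1 dye order. Chemokines on the same side of 0 on every array, 3 as reported, were 1 with median centring, which was Ccl3 and none of the 3 (median over all genes −0.11; 2.55% of all genes higher and 3.42% lower on every array), 4 to 5 with a tumor left out (22.6% to 29.2% higher and 22.0% to 33.0% lower), and 2 to 4 under the others, the 4 without the filter being of 10. The cause of these shifts was not tested. Requiring 2.6 background SDs left 5 in place of 7 chemokines above background in all channels, without Ccl3 and Ccl11, so ratios of these dim genes are limited by signal over background. The slide was not used as a block, because all arrays share 1. The ratio on each array already pairs the cultures of a tumor, so no other pairing was tried.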
